A study of Drosophila melanogaster with 2 samples.

Results

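The intergenic peaks are the sites of tagged nerfin-2 that lay outside every protein-coding gene and away from its promoter. They were taken from the second pooled peak list by position alone. A summit, the base a peak caller places at the top of a peak, was kept when it lay outside every protein-coding gene and more than 500 bp from every protein-coding start and every tRNA gene 5′ end. This rule kept 255 of the 3358 peaks on the 7 main chromosome arms, or 7.59% of them. Of these 255 summits, 71 lay inside an annotated non-coding gene or transposable element, so intergenic here means only outside protein-coding genes. For comparison, 361 summits lay in introns under the same distance rule and 2429 lay within 500 bp of a protein-coding start. The study is a chromatin immunoprecipitation and sequencing (ChIP-seq) experiment on whole Drosophila melanogaster embryos aged 8 to 24 h, from a transgenic strain that carries nerfin-2 fused to eGFP. Chromatin was sheared by sonication and collected, per the labels' description, with an antibody against GFP, although another label names nerfin-2 as the antibody, and which of these was used could not be settled from the labels. There was 1 group with 2 biological replicates, each given as peak lists on genome build dm6, and the tissues and the driver of the fusion gene are not given in the labels. A control experiment named in the labels was not analysed here.

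Both nerfin-2 and its better known relative nerfin-1, which acts in newly formed neurons, code for zinc finger proteins. Intergenic DNA of the fly holds enhancers, insulators and the promoters of many non-coding RNA genes, and much of it is made of transposable elements. INE-1 is a short and very common element of this kind that is found all over the Drosophila genome. The DNA replication-related element (DRE) is the site of DREF, a factor of many housekeeping promoters, and its letters contain the CGATA core bound by the insulator protein BEAF-32.

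Windows that reach 50 bases to each side of chosen summits are given below, as plus-strand sequence of Release 6 (dm6), 5′ to 3′. By rule, a strong peak was taken for each of 8 kinds of neighbourhood, and the INE-1 copies near ed and gzl, the sites near CG8765 and CG14204, which have the shared string outside INE-1, and the DRE sites near CG7049, Sumo and CG3168 were added after their values were seen. Capitals mark either the 11-base string CTATCAGATAC on either strand or the 8-base DRE, TATCGATA. The windows near ArgRS, ed, gzl, CG8765 and CG14204 carry the string, and those near CG10651, CG7049, Sumo and CG3168 carry the DRE. Most intergenic summits had neither within 50 bp: of all 255, 24 had the string and 15 the DRE.
Within snRNA:7SKa, near CG1142 (chr3R:7474828-7474928): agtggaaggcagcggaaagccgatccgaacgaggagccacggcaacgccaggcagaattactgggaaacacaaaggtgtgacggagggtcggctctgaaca
Within asRNA:CR45009, near stnA (chrX:23007642-23007742): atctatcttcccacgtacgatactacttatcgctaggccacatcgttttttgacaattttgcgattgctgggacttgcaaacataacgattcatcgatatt
In an INE-1 copy near ArgRS (chrX:15841536-15841636): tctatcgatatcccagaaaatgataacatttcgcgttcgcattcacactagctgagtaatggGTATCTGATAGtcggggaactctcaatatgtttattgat
In an INE-1 copy near ed (chr2L:4030653-4030753): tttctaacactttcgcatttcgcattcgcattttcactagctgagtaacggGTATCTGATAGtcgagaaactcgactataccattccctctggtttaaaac
In an INE-1 copy near gzl (chr3R:6388437-6388537): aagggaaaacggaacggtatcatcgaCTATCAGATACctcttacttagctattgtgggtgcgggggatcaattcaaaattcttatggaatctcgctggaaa
Outside annotated INE-1, near CG8765 (chr3L:19683672-19683772): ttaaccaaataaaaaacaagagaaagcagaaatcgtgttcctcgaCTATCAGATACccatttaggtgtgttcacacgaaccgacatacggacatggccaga
Outside annotated INE-1, near CG14204 (chrX:19582876-19582976): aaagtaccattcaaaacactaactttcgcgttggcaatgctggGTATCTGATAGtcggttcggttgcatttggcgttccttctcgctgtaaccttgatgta
No 5′ end within 500 bp, near fuss (chr4:979666-979766): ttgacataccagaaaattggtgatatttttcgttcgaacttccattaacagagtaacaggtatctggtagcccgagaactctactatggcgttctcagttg
Beside snoRNA:Psi28S-3342, near CG12730 (chrX:5524443-5524543): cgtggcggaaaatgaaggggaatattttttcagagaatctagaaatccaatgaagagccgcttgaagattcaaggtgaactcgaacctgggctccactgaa
Within lncRNA:CR45352, near NimC3 (chr2L:14021854-14021954): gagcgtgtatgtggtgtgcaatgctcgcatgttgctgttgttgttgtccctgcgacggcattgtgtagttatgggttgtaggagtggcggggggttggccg
Beside the pseudogene CR31032, near CG7824 (chr3R:29859838-29859938): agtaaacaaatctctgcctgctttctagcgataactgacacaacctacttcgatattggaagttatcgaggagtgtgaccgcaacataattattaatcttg
Beside a Dm88 element, near CG10651 (chr2L:20120520-20120620): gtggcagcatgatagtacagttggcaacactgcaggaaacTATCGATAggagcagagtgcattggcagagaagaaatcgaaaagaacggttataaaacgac
Beside asRNA:CR45806, near CG7049 (chr3L:174673-174773): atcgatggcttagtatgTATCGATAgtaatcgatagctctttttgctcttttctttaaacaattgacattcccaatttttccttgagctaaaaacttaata
Near Sumo (chr2L:6968231-6968331): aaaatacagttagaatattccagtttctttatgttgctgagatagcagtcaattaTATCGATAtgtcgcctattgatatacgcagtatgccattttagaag
Near CG3168 (chrX:6741234-6741334): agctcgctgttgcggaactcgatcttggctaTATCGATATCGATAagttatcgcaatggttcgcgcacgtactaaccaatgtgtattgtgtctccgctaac

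The windows shown in INE-1 and those near CG8765 and CG14204 have the string in either orientation. In the window near CG3168 a pair of overlapping DREs forms 1 longer run. All of these windows except the one near ArgRS were chosen because they carry the string or the DRE. Of the 27 intergenic summits in INE-1, 18 had the string. The DRE at the left end of the window near ArgRS is left in lower case because capitals there mark the string.

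Signal, the peak caller's own value with no unit, had a median of 83.7 at the intergenic peaks, with the middle of the distribution between 69.2 and 110 and a full range of 2.22 to 452. Intronic peaks had a median of 82.6 and promoter peaks one of 120. Intergenic peaks were thus weaker in the median than promoter peaks and close to intronic ones. Their width had a median of 400 bp, and 250 of the 255 had the summit 200 bp from the start of the peak, so most summits mark the middle of a fixed-width call. The lists give no read depth, and the intervals below cover counting error over peaks only.

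The distance from an intergenic summit to the nearest protein-coding start ran from 505 to 273473 bp, with a median of 2605 bp. Only 51 summits lay within 1000 bp of a start, and 39 lay more than 10000 bp away. The nearest start had the summit on its upstream side for 152 peaks and on its downstream side for 103. The flanking protein-coding genes ran in tandem at 132 peaks, diverged at 65 and converged at 57, and 1 peak lay beyond the last gene of its arm. The peaks just inside the 500 bp limit lay 505 bp from Rcd2, 530 bp from Hml, a hemocyte clotting protein gene, and 532 bp from alpha-Man-IIb, a mannosidase gene, with signals of 179, 94.4 and 150. Those just outside lay 483 bp from H15, 485 bp from Agpat1 and 492 bp from GCS2alpha, with signals of 169, 55.7 and 84.6.

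Nearly all intergenic peaks, like nearly all peaks of the list, had a relaxed call in each replicate. In the relaxed ranked lists, which keep many weak calls, 252 of the 255 had a call in replicate 1 and 249 in replicate 2, and 246 had one in both. Of all peaks of the second list, 99.8%, 98.7% and 98.5% had such calls in replicate 1, replicate 2 and both. The relaxed lists held 128864 and 134990 calls on the main arms in replicates 1 and 2, so a call there sets a low bar. Their median relaxed signal was 51.9 in replicate 1 and 38.6 in replicate 2. Replicate 1 gave the higher value at 189 of the 246, or 76.8%, close to the 77.5% of intronic and 78.3% of promoter peaks, and the median ratio of replicate 1 to replicate 2 was 1.32. Spearman's rho between the replicates across peaks was 0.440 for intergenic, 0.294 for intronic and 0.723 for promoter peaks. These are descriptions across peaks of the same 2 libraries, and the classes differ in their range of signal.

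**Figure D1:**
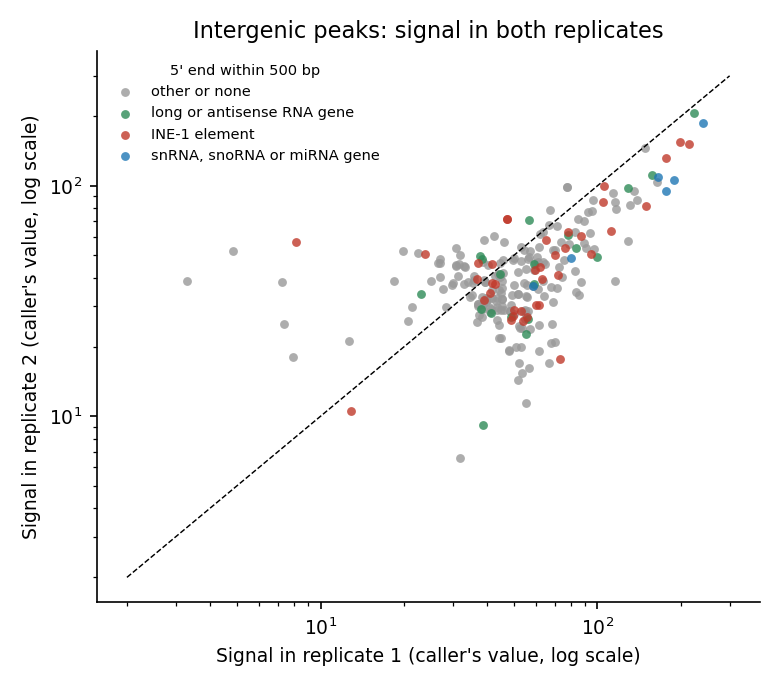
Each point is 1 of the 246 intergenic peaks with a call in both relaxed lists, with the signal in replicate 1 on the x axis and in replicate 2 on the y axis, both on log scales, and the dashed line marks equal signal. Most points, 189, lie under the line, and the peaks at snRNA and snoRNA genes and several INE-1 copies lie at the upper right.

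The thresholded lists, which hold the reported calls, contained a smaller share of the intergenic peaks than of the promoter peaks. The conservative pooled list held 147 of them (57.6%, 95% interval 51.5 to 63.6), beside 77.1% of all peaks of the second list. The difference was -1.63 percentage points from intronic peaks, of which 59.3% were held (95% interval of the difference -9.51 to 6.20, Fisher's exact test, adjusted p = 0.797), and -25.8 points from promoter peaks, of which 83.5% were held (adjusted p = 5.97e-19). All adjusted p-values of this kind come from two-sided Fisher's exact tests on peaks, with Benjamini-Hochberg adjustment over 14 tests. Peaks of 1 library pair are not independent replicates, so these tests speak of the peaks in these lists.

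The list of replicate 1 held 137 of the intergenic peaks (53.7%), beside 69.1% of all peaks, and that of replicate 2 held 82 (32.2%), beside 50.6% of all. The lists of both replicates held 64 (25.1%), beside 44.7% of all. For both lists together, the share was 7.37 points higher than the 17.7% of intronic peaks (interval 0.849 to 14.1), which missed the threshold of 0.05 after adjustment (Fisher's exact test, adjusted p = 0.0529), and lower than the 52.8% of promoter peaks, with a difference of -27.7 points (adjusted p = 6.82e-17). The 64 had a median pooled signal of 145. Another 73 were in the list of replicate 1 only (median 87.3), 18 in that of replicate 2 only (median 86.1) and 100 in neither (median 71.5).

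These shares went with signal. Among peaks at or above the median signal of the whole list, 70 intergenic peaks remained, and 49 of them (70.0%) were in both replicate lists, against 79.7% of the promoter peaks at that level. That difference, -9.72 points, no longer passed Fisher's exact test (adjusted p = 0.228), and the difference in the conservative list was 1.20 points (adjusted p = 1). When the intergenic peaks were divided by signal into 4 groups of 63 or 64, all of the strongest group were in the conservative list, and 71.9% of it were in both replicate lists, against 9.38% of the weakest group. The weakest group held all 22 intergenic peaks that overlapped a stronger peak. Such a peak can be counted in a list through the call of its stronger neighbour.

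**Figure D2:**
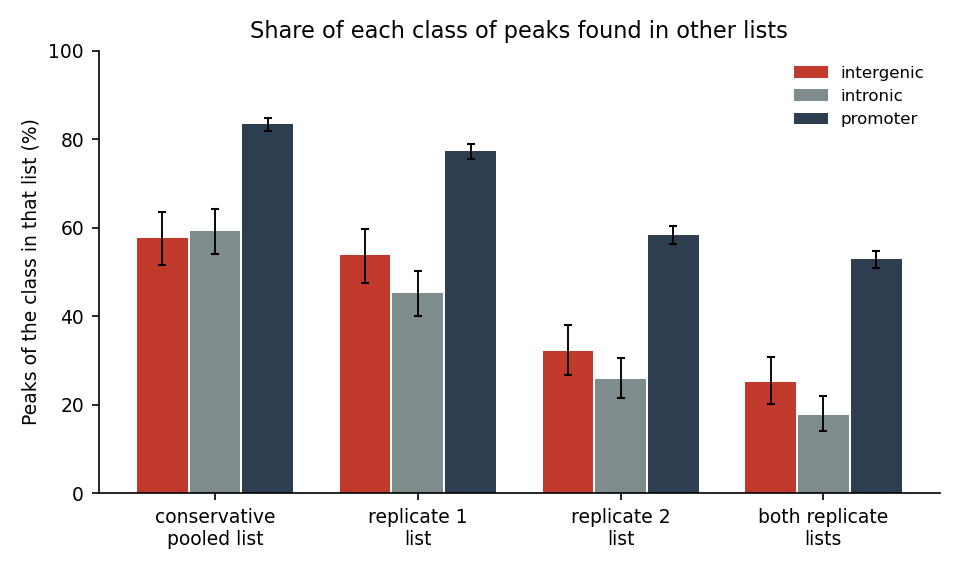
Bars give the percentage of intergenic (left bar of each set), intronic (middle) and promoter peaks (right) that overlapped a peak of each other list, with Wilson 95% intervals that cover counting error over peaks. Promoter peaks are highest in all 4 sets, and the intergenic bar stands at 57.6% in the conservative list and at 25.1% for both replicate lists.

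The highest signal of all intergenic peaks was at snRNA:7SKa, the gene of the 7SK RNA that restrains the elongation kinase P-TEFb. This peak (chr3R:7474761-7475055) had a pooled signal of 452, with 240 in replicate 1 and 188 in replicate 2, and its summit lay inside the gene, 118 bp from its 5′ end. The nearest protein-coding start, that of CG1142, was 1097 bp away. At snRNA:U6:96Ac, a gene of the U6 spliceosomal RNA, the peak (chr3R:24557085-24557484) had 244, with 176 and 94.7 in replicates 1 and 2. At snRNA:U1:95Ca, a gene of the U1 RNA that recognises 5′ splice sites, the peak (chr3R:23859398-23859797) had 140, with 80.0 and 48.5. All 3 snRNA peaks were in both replicate lists, and their summits lay 32 to 118 bp inside the genes. U1 and U6 have near-identical gene copies, and the share of reads placed at each copy was not tested.

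Genes of snoRNAs, which guide the modification of ribosomal RNA, had the nearest non-coding 5′ end at 2 strong peaks. The peak at snoRNA:Psi28S-3342 (chrX:5524462-5524562) had 299 (189 and 106 in replicates 1 and 2), with its summit 28 bp from the 5′ end. The peak at snoRNA:Psi18S-176 (chr2R:23839886-23840285) had 288 (165 and 110), with its summit 22 bp from the 5′ end. A miRNA gene had the nearest non-coding 5′ end at 1 peak, 181 bp from mir-34, with 81.0 (58.4 and 36.8), and it was in the list of replicate 1 only. The peak of 295 near CG34460 (chr2R:16830324-16830723, 149 and 147) lay inside lncRNA:CR43650, 908 bp from mir-8.

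The small RNA genes with a peak were a minority of those in the searched sequence. Of 13 snRNA genes whose 5′ end met the distance rule, 3 had an intergenic summit within 500 bp, as did 3 of 50 snoRNA genes, 2 of 85 miRNA genes and none of 99 rRNA genes. A summit counts for every gene within 500 bp here, so clustered genes share it. How reads were placed among similar gene copies, such as those of rRNA, was not tested, so a gene without a summit is not shown to be unbound. Long non-coding RNA genes had one at 16 of 1262, and pseudogenes at 5 of 247.

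**Figure D3:**
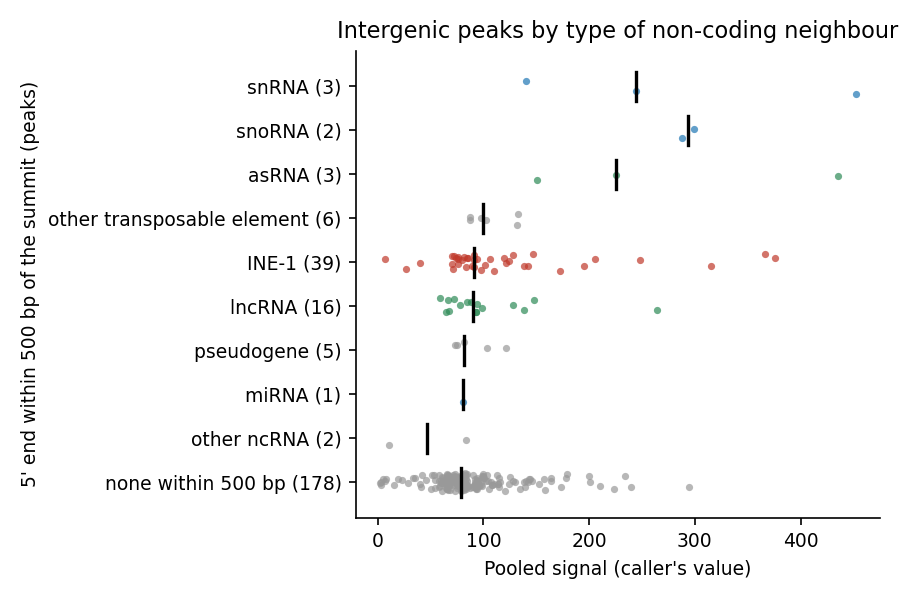
Each point is an intergenic peak, placed by its pooled signal on the x axis and by the type of the nearest non-coding 5′ end within 500 bp down the y axis, with the number of peaks in brackets and a black bar at the median. The 3 snRNA and both snoRNA peaks run from 140 to 452, while the 178 peaks with no such neighbour have a median of 79.3.

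In total 77 intergenic summits (30.2%) had the 5′ end of a non-coding gene or transposable element within 500 bp, against 16.9% of intronic and 6.13% of promoter summits. The difference was 13.3 points from intronic peaks (95% interval 6.52 to 20.2, Fisher's exact test, adjusted p = 0.000246) and 24.1 points from promoter peaks (adjusted p = 2.53e-26). With replicate 1's list alone, without replicate 2, the difference from intronic peaks was 5.69 points and did not pass Fisher's exact test (adjusted p = 0.399), and at or above the median signal it was 6.35 points (adjusted p = 0.927). Of the sequence that met the rule for intergenic summits, 9.19% lay within 500 bp of such a 5′ end. That share was not computed for introns or promoters. How far the differences in this paragraph follow the density of annotated 5′ ends was therefore not tested. The nearest such neighbour was an INE-1 element at 39 peaks, a long non-coding RNA gene at 16, another transposable element at 6, a pseudogene at 5, an antisense RNA gene at 3 and another non-coding RNA at 2, beside the small RNA genes above. Without transposable elements, 33 intergenic summits (12.9%) remained, against 4.71% of intronic and 4.12% of promoter summits, a choice made after the data were seen (Fisher's exact test, adjusted p = 0.000572 against intronic and 2.04e-07 against promoter peaks).

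Strong peaks were found at antisense and long RNA genes as well. The peak near stnA, which encodes a synaptic vesicle recycling protein, lay 20 bp inside asRNA:CR45009 (chrX:23007561-23007783) and had 436, with 224 and 208 in replicates 1 and 2. The peak near CG7049, 415 bp from asRNA:CR45806 (chr3L:174523-174922), had 225 (129 and 98.2) and a DRE. The peak 65 bp from lncRNA:CR44127, near CG7881 (chr2R:5967611-5968010), had 264 (157 and 111). All 3 antisense neighbours belonged to peaks in both replicate lists, and the same held for 4 of the 16 long RNA neighbours. The share in both lists was 44.7% over all peaks of the second list and 25.1% over all intergenic peaks. Of 41 antisense RNA genes whose own 5′ end met the distance rule, 1 had an intergenic summit within 500 bp. The other antisense neighbours had 5′ ends that did not meet it.

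INE-1 was the one transposable element family that held intergenic summits. The summit lay inside an annotated INE-1 copy at 27 of the 255 (10.6%, 95% interval 7.38 to 14.97), while INE-1 covered 0.572% of the sequence that met the rule. Points 2000 bp to each side of the same summits lay in INE-1 in 5 of 510 cases. Summits in INE-1 were 31 of 361 in introns (8.59%) and 11 of 2429 at promoters (0.453%). No intergenic summit lay in any other transposable element, while transposable elements of all families covered 10.4% of the same sequence. These counts were made after the families of the neighbours had been seen, so they carry no test. INE-1 exists in many similar copies. How reads were placed among copies of INE-1 or of other transposable elements was not tested. The lack of summits in other families therefore describes this list only.

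The INE-1 peaks included several of the strongest. The peak near ArgRS, the arginyl-tRNA synthetase gene (chrX:15841503-15841677), had 376, with 214 in replicate 1 and 151 in replicate 2. The peak near ed, which encodes the cell adhesion protein Echinoid (chr2L:4030631-4030765), had 366 (198 and 155), that near Pld, the phospholipase D gene (chr2R:6241250-6241649), had 315 (176 and 133), and that near gzl, a ubiquitin ligase gene (chr3R:6388287-6388686), had 248 (150 and 81.7). In all 27, the pooled signal had a median of 110 and ran from 26.7 to 376. Of the 27, 23 were in the conservative list and 11 in both replicate lists. Over all peaks of the second list these shares were 77.1% and 44.7%, and over all intergenic peaks 57.6% and 25.1%.

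The string shown in capitals above, CTATCAGATAC, was tied with a string shifted by 1 base as the most frequent run of 11 bases at intergenic summits. It stood within 50 bp of 24 of the 255 summits (9.41%, 95% interval 6.41 to 13.6), against 1 of 510 windows centred 500 bp to each side (0.196%). It stood at 37 of 361 intronic summits (10.2%) and at 15 of 2429 promoter summits (0.618%). The same letters read backwards were at none of the intergenic summits. Of the 24 intergenic sites with the string, 18 had the summit in an annotated INE-1 copy and 6 did not. The string was chosen from these windows, so the counts describe it and test nothing.

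The string was searched only within 50 bp of the summit, which bounds its distance from it. Within that window its centre lay between -44 and 42 bp of the summit. The median distance was 18 bp, and 13 of 24 were within 20 bp. Intergenic peaks with the string had a median signal of 104, against 81.5 for the others. Of the 24, 18 were in the conservative list and 8 in both replicate lists. The shares over all peaks of the second list were 77.1% and 44.7%, and those over all intergenic peaks 57.6% and 25.1%. With 1 letter of the string allowed to differ, 38 intergenic summits (14.9%) held it, 23 in INE-1 and 15 outside, again against 1 of 510 flanking windows. The peak near fuss, a gene of the Ski and Sno family on chromosome 4 (chr4:979516-979915), had 240 (139 and 86.7) and lies outside annotated INE-1, 534 bp from the nearest INE-1 5′ end.

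**Figure D4:**
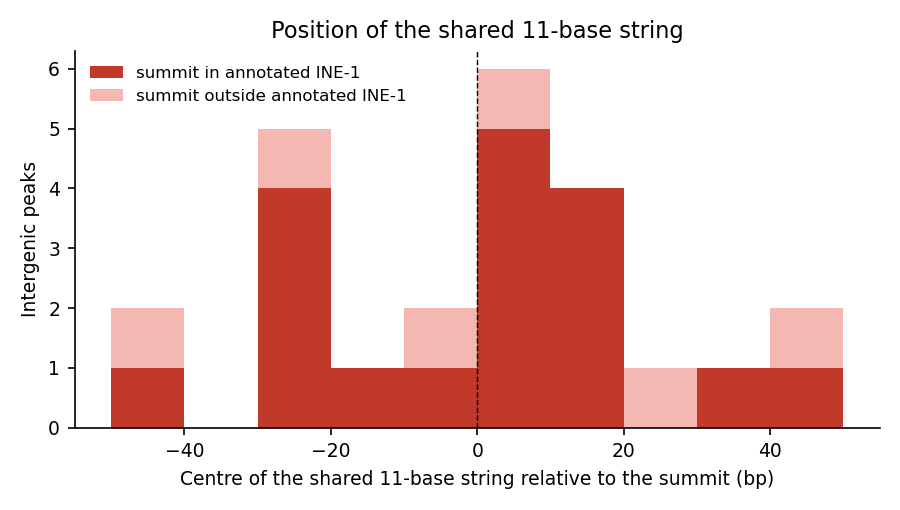
Bars count the 24 intergenic peaks with the 11-base string by the position of its centre relative to the summit in bp, stacked as summits in annotated INE-1 (dark) and outside it (light). The positions run from -44 to 42 bp, a range bounded by the search within 50 bp, with the tallest bar of 6 peaks just right of the summit.

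INE-1 copies with and without the string were counted over the main arms. Of 526 copies that held it, 54 (10.3%, 95% interval 7.95 to 13.2) contained a summit of the second pooled list, intergenic or not, against 14 of the 1709 copies without it (0.819%, 0.489 to 1.37). Copies with the string had a median length of 215 bp, against 138 bp for those without. Most copies with the string had no summit in the list. The string was drawn from some of these same summits, so the shares are a description. The string occurred 929 times on the main arms in all.

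Chromosome 4 carried the most intergenic peaks for its size. It had 7 in the 0.298 Mb that met the rule, or 23.5 per Mb, against 6.03 per Mb over all arms. Of these 7, 6 had the summit in INE-1, among them the peak near zfh2 with a signal of 172 (112 and 63.6). The INE-1 share of the searched sequence, 0.572%, was taken over all arms together and not for chromosome 4 alone. How far the count and density there follow the amount of INE-1 on that chromosome was therefore not tested, and both rest on 7 peaks. The density was 5.37 per Mb on 2L, 6.71 on 2R, 6.14 on 3L, 6.82 on 3R and 6.10 on X. On Y it was 0.408, from 1 peak, 273473 bp from ARY and with a signal of 75.5.

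The DRE stood within 50 bp of 15 intergenic summits (5.88%, 95% interval 3.60 to 9.48), against 3 of 510 flanking windows (0.588%). The share was 3.94 points above the 1.94% of intronic summits (95% interval 0.900 to 7.67, Fisher's exact test, adjusted p = 0.0241) and differed by -14.2 points from the 20.1% of promoter summits (adjusted p = 2.60e-09). The difference from intronic peaks did not pass Fisher's exact test in the list of replicate 2 alone, without replicate 1 (5.96 points, adjusted p = 0.155), within 25 bp of the summit (1.91 points, adjusted p = 0.129) or at or above the median signal (8.26 points, adjusted p = 0.228). All 15 were in the conservative list and 9 in both replicate lists, beside 77.1% and 44.7% of all peaks of the second list. Their signal had a median of 130 and ran from 94.5 to 376, against a median of 82.5 for the other intergenic peaks. Within the 50 bp searched, which bounds the distance, the centre of the DRE lay at a median of 24 bp and at most 44 bp from the summit. Of the 15 summits, 11 lay more than 1000 bp from any protein-coding start.

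Examples with a DRE, chosen after their values were seen, were the peaks near Sumo, which encodes a ubiquitin-like modifier, psq, which encodes a DNA-binding protein of the Pipsqueak type, and CG3168. The peak near Sumo had 141 (63.6 and 63.3 in replicates 1 and 2), that near psq had 140 (71.4 and 67.1) and that near CG3168 had 135 (79.0 and 55.8). The peak near psq was in the thresholded lists of both replicates, while those near Sumo and CG3168 were in that of replicate 1 only.

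Both the DRE and the shorter CGATA core of BEAF-32 stood at larger shares of the stronger peaks, given here with no test. None of the intergenic peaks in the weakest and second signal groups, 64 in each, had a DRE, while 6 of 63 (9.52%) did in the third group and 9 of 64 (14.1%) in the strongest. CGATA, which is part of the DRE, stood at 14.1%, 10.9%, 23.8% and 40.6% of summits from the weakest to the strongest group. The share of summits in INE-1 was 3.12% in the weakest group and 20.3% in the strongest, and that with a non-coding 5′ end nearby was 12.5% and 45.3%. The GC content of the windows had a median of 46.0% in the weakest group, 45.5% and 41.6% in the next, and 39.6% in the strongest, so base composition moved along with these letters.

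**Figure D5:**
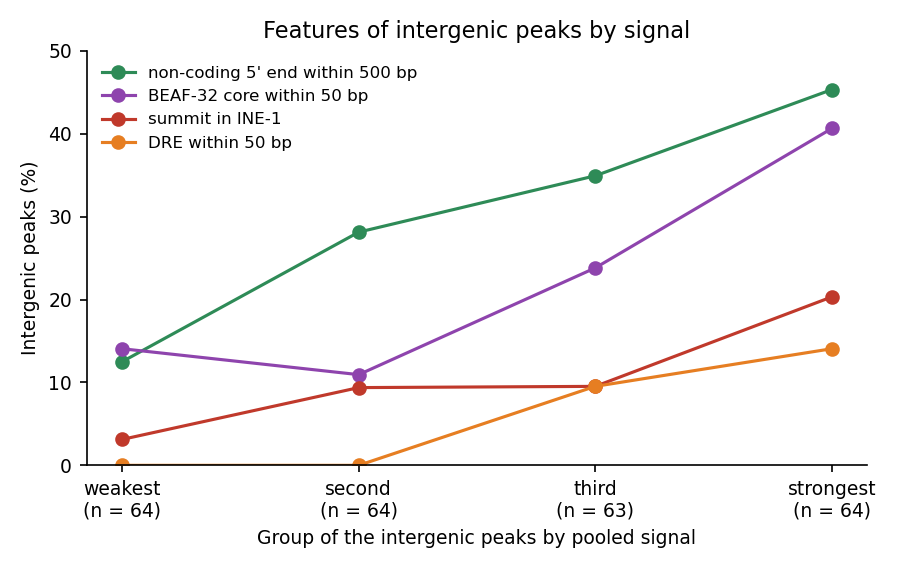
Lines give the percentage of intergenic peaks with each feature in 4 groups of the peaks by pooled signal, from the weakest on the left to the strongest on the right. The DRE line is at 0 in both weaker groups and at 14.1% in the strongest, and the BEAF-32 core line reaches 40.6%.

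Over all intergenic summits, CGATA stood at 22.4%, against 13.7% of flanking windows, 16.9% of intronic summits and 58.9% of promoter summits. The Trithorax-like string GAGAGAG stood at 3.92% (10 peaks) against 0.980% of flanking windows. GCCATNTT, the string of the Polycomb recruiter Pho, stood at 3.53% (9 peaks) against 1.57%, and the proneural E-box CAGCTG at 5.88% (15 peaks) against 3.33%. At intronic summits these 3 strings stood at 3.60%, 1.66% and 4.43%, and at promoter summits at 1.73%, 1.89% and 9.35%, with no test. TATAAA, the core promoter string, was less common at summits than beside them, 10.98% against 17.3%, while median GC content was 42.6% at summits and 38.6% beside them. CTCF core AGGNGGC was at 3.92% against 2.94%, and TTCCCAA, a core of the snRNA promoter element, at 3.53% against 2.16%. TTGCATAC of Su(Hw), GGTCACAC of M1BP, CAGGTAG of Zelda, GTTCGANNC of the tRNA B box and CAGGGGGC of INSM1, a vertebrate relative of the nerfin proteins, each stood at 3 or fewer of the 255 summits. All 13 motifs were searched on both strands within 50 bp, and a match is a string of letters, not a shown site.

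Outside the named elements, the strongest intergenic peaks in both replicate lists with no gene or element within 500 bp were near Ugt37C1, a glycosyltransferase gene (chr2R:16841533-16841932), with 224 (132 and 82.2), CG31668 (chr2L:2202166-2202565) with 210 (114 and 93.0), and RYBP, a Polycomb-associated gene (chr2R:22678166-22678565), with 201 (117 and 79.1). The peaks near Rcd2 (chr3L:20540722-20541121) and mRpS5, a mitochondrial ribosomal protein gene (chr3L:24535905-24536304), followed with 179 (128 and 57.8) and 173 (92.7 and 77.1). In all, 105 intergenic summits had no annotated gene or element within 500 bp, with a median signal of 78.1. The peak near CG15468 (chrX:4955933-4956332), among the top 15 of all intergenic peaks, had 234 (136 and 94.5). It is not one of the 105, because an annotated gene or element lay 217 bp from its summit.

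Peaks far from protein-coding starts had a lower median signal. None of the farthest 5 was in both replicate lists, beside 25.1% of all intergenic peaks and 44.7% of all peaks of the second list. With so few peaks, a pair of which overlapped, this count cannot be told apart from the intergenic share. The farthest on the autosomes, 59586 bp from Cyp12e1, had a signal of 76.4 (32.97 and 37.4 in replicates 1 and 2) and was in neither replicate list. The peak 42310 bp from CG12362 had 83.5 and was in the list of replicate 1 only, with no relaxed call in replicate 2. A pair of peaks lay 52073 and 52272 bp from Or67d, an odorant receptor gene, with signals of 69.5 and 4.94. Over 10000 bp from a start the median was 76.4, and within 1000 bp it was 93.6. Close to the start of MBD-R2, at 549 bp, the peak had 68.1 (39.4 and 38.3) and was in neither replicate list.

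The pair near Or67d belongs to a set of weak calls on the flank of stronger ones. In total 22 intergenic peaks (8.63%) overlapped a stronger peak, against 7.48% of intronic peaks (difference 1.15 points, interval -3.13 to 5.83, Fisher's exact test, adjusted p = 0.760) and 8.60% of promoter peaks (difference 0.0231 points, interval -3.07 to 4.25, adjusted p = 1). For 20 of the 22 the stronger peak was itself intergenic. Their median signal was 24.9, and all 13 intergenic peaks with a signal under 30 were among them. Overlapping calls can share the nearest relaxed call of a replicate, so replicate values of such pairs are not separate measurements. In all, 233 intergenic peaks overlapped no stronger one, and their median was 87.3.

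The nearest genes were set against 3 lists of regulators of the embryo. Of 26 neuroblast and neuron regulators, none was the nearest gene of an intergenic peak, and 4 of the 3358 peaks (0.119%) had one of them as the nearest gene. Hox genes, 8 in the list, were nearest to 1 intergenic peak (0.392%), against 8 of all peaks (0.238%). The gene was Abd-B, and the peak had a signal of 67.7 (38.9 in both replicates), 14988 bp from its start. Segmentation genes, 20 in the list, were nearest to 5 intergenic peaks (1.96%), against 7 of all peaks (0.208%). Of these, slp2 was the nearest gene of 1 peak, with 84.0 (49.3 and 33.7), and en and hh of 2 each. The stronger peak near en, 1484 bp from its start, had 84.5 (55.2 and 27.9), and the one near hh, the hedgehog ligand gene, had 72.6 (39.1 and 38.3) at 1379 bp. The weaker peaks of both pairs, with 15.1 and 19.1, overlapped the stronger ones, so the 5 peaks stand for 3 places. None of the 5 was in both replicate lists, beside 25.1% of all intergenic peaks and 44.7% of all peaks. A count over 3 places cannot be told apart from the intergenic share.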

How the data were processed

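ChIP-seq peak lists from 2 biological replicates of 1 group were used, on build dm6 per the labels. For each replicate the authors deposited thresholded peaks and a longer relaxed ranking, and pooled lists over both. Signal values are the peak caller's own, as the authors deposited them, and the deposited offset gives the summit from the peak start. For the aligner, the peak caller and how signal relates to a control, details were not given in the sources used here. Depth is unknown. Replicate numbers come from the labels. Nothing says more of their separate origin than that they are biological replicates.

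The second pooled thresholded list was analysed on the main arms, with starts and genes from the Ensembl 115 annotation of BDGP6 and sequence from RefSeq's Release 6 assembly. Arm lengths were checked, and 0 peaks ran past an arm's end. Overlap meant at least 1 bp. Relaxed signal is that of the overlapping call with the nearest summit. Motifs were searched within 50 bp of summits and in windows centred 500 bp to each side. Shares have Wilson 95% intervals and differences Newcombe intervals. Two-sided Fisher's exact tests for 14 differences were adjusted by Benjamini-Hochberg, with a threshold of 0.05. Steps were tested on simulated data. Named peaks are those with the 15 highest signals, those at snRNA, snoRNA, rRNA or miRNA 5′ ends, the 5 nearest to and 5 farthest from a start, and the 5 strongest in both replicate lists with no gene within 500 bp. Other names are examples. Members, motifs and gene lists were chosen with earlier results of these data known. Alternatives were the conservative list, single replicates, other distances, windows and overlaps, stronger peaks only, and, added after seeing the data, leaving out INE-1 summits or transposable element 5′ ends. Python 3.11.15, pandas 2.3.3, NumPy 2.4.6, SciPy 1.17.1, statsmodels 0.14.6 and matplotlib 3.10.9 were used.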

Additional observations from a re-analysis of the deposited data

How the results depend on the processing

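Of 157 values recomputed, 116 stayed on the same side of the threshold with the same sign or moved by less than their error, and 41 did not. No paired analysis was possible because there was 1 group. Differences below are intergenic minus intronic or minus promoter peaks, in percentage points, and the cause of each change was not tested. Starting from the conservative list gave 168 intergenic peaks, with 44.6% in the list of replicate 2, 36.9% in both and a DRE at 10.1%. Differences from intronic peaks there were 13.0 for replicate 2 and 12.4 for both lists, now past the threshold, and those for overlap with a stronger peak were -3.14 (intronic) and -3.70 (promoter). Leaving out each replicate in turn gave 91 to 159 intergenic peaks, with 62.3% to 83.5% of them in the conservative list. Differences from intronic peaks then ran from -1.62 to 10.9 for that list, from -2.84 to -0.751 for overlap with a stronger peak, from 5.96 to 6.66 for the DRE and from 5.69 to 20.4 for non-coding 5′ ends. A limit of 1000 bp gave 10.6 for replicate 1 against intronic peaks. A limit of 250 bp gave 10.4 for replicate 1, 9.21 for replicate 2 and 10.1 for both lists against intronic peaks, and 3.92 for overlap with a stronger peak against promoter peaks. Peaks at or above the median signal numbered 70, with 100% in the conservative list, 94.3% in that of replicate 1, 74.3% in that of replicate 2, 70.0% in both and a DRE at 12.9%. Differences there were 3.45 (intronic) and 1.20 (promoter) for the conservative list, -2.27 and -1.35 for replicate 1, -8.53 (promoter) for replicate 2, -9.72 (promoter) for both lists, 8.26 (intronic) for the DRE, 6.35 (intronic) for non-coding 5′ ends and -0.845 (promoter) for overlap with a stronger peak. DRE windows of 100 and 25 bp gave 10.2% and 2.75%, and a difference of 1.91 from intronic peaks at 25 bp. Without INE-1 summits, differences from intronic peaks were 11.0 for replicate 1 and 7.79 for both lists, past the threshold. Requiring a larger shared part of the peak, or leaving out peaks that overlap a stronger one, changed no call among the 12 and 18 values computed under them. The lists hold peaks without read counts, so counting error within a peak cannot be given.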
